A study of Mus musculus with 2 samples.

Results

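Bcl11b, Fezf2, Tbr1, Sox5, Bcl11a, Cux1 and Cux2 encode transcription factors that set the identity of cortical projection neurons. These 7 listed genes were taken from 21938 protein-coding genes and described by the binding of CTCF around them in newborn mouse forebrain. Bcl11b, Fezf2, Tbr1 and Sox5 formed a group of 4 deep-layer factors, and Cux1 and Cux2 a group of 2 upper-layer factors. Bcl11a, which acts in both deep and upper layers, was kept apart. A CTCF site was the summit of a peak in the deposited optimal list, and 177 of 56462 placed sites lay inside these genes or within 200 kb of them.

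CTCF was mapped by chromatin immunoprecipitation and sequencing in forebrain of strain B6NCrl mice on postnatal day 0. The labels name no treatment and no allele. There was 1 group of 2 libraries, replicate 1 and replicate 2. Both came from 1 biosample, a pool of pulverised forebrains from several dissections, so differences between the libraries may be technical. Whole forebrain holds far more than cortical projection neurons, and binding in fewer cells and weaker binding in each cell cannot be told apart in it. Peak lists do not measure expression, so the tissue label could not be checked against marker genes. The strength of a site is the signal value that the authors' peak caller wrote, on a scale that the sources used here do not state. With 1 group and no second condition, all values are descriptions and none was tested.

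CTCF recognises DNA through its zinc fingers and halts the cohesin complex as it extrudes chromatin loops. Loops tend to form between a pair of sites whose motifs point towards each other. Projection neurons of the cortex carry its output: deep-layer cells project mainly to the thalamus, brainstem and spinal cord, and upper-layer cells mainly to other cortical areas. Fezf2 and Bcl11b (also called Ctip2) specify subcerebral projection neurons, Tbr1 specifies corticothalamic neurons, Sox5 controls the sequence and migration of deep-layer neurons, and Cux1 and Cux2 shape dendrites and synapses of upper-layer neurons.

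The DNA at the strongest site within 200 kb of each gene is shown first. Each line holds 50 bases of GRCm38 (mm10, RefSeq GRCm38.p6) around the summit, 5′ to 3′ on the stated strand, and capitals mark a match to the 14-base CTCF core motif with at most 2 mismatches. The site named for Tbr1 had no such match and has no capitals.
Bcl11b, own intron, chr12:107998933-107998982, minus strand: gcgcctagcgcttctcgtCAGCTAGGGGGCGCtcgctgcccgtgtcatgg
Fezf2, in Ptprg, chr14:12152110-12152159, plus strand: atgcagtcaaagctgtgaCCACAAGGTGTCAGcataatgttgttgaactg
Tbr1, in Tank, chr2:61643154-61643203, plus strand: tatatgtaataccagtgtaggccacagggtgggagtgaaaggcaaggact
Sox5, upstream, chr6:144815024-144815073, minus strand: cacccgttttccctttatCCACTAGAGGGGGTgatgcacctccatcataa
Bcl11a, in A830031A19Rik, chr11:24049376-24049425, plus strand: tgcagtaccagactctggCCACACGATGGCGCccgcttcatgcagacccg
Cux1, at Polr2j, chr5:136116601-136116650, plus strand: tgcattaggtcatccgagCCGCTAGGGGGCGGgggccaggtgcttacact
Cux2, upstream, chr5:122089073-122089122, minus strand: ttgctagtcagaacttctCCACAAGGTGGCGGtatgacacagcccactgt

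The site nearest the start of each gene that had one within 1 kb is shown next, because promoter sites of these genes differed in whether they held the motif. For Cux1 the strongest of its 3 promoter sites is given.
Bcl11b, chr12:108004148-108004197, plus strand: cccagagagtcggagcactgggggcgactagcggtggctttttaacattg
Sox5, chr6:144209658-144209707, plus strand: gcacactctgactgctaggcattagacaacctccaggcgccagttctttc
Bcl11a, chr11:24081077-24081126, plus strand: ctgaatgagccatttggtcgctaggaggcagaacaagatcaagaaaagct
Cux1, chr5:136567606-136567655, plus strand: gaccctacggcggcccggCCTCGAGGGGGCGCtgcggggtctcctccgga
Cux2, chr5:122050466-122050515, plus strand: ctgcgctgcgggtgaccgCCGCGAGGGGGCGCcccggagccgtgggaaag

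The strongest sites inside Cux1 and Cux2 matched the core motif without a mismatch and lay near the 3′ ends of these genes.
Cux1, intron, chr5:136253081-136253130, minus strand: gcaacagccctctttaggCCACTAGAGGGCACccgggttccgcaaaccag
Cux2, intron, chr5:121872318-121872367, plus strand: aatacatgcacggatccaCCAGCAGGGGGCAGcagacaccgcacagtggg

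A CTCF site within 1 kb of a transcription start site (TSS) was found at 5 of the 7 genes, against 36.8% of all protein-coding genes. The count depended on the limit: 3 of the 7 genes had a site within 500 bp of a TSS, against 30.4% of all protein-coding genes. With the gene's 5′ end as its single TSS it was also 3, against 34.0%, and with the stronger part of the list it was 3, against 16.9%. At the 1 kb limit, among deep-layer factors Bcl11b and Sox5 had one and Fezf2 and Tbr1 had none, Bcl11a had one, and both upper-layer factors had one. The background differed between genes when taken from the same decile of GC content around the gene's 5′ end. It was 43.4% for Bcl11b, 58.1% for Sox5, 11.8% for Fezf2 and 28.0% for Tbr1. For Bcl11a it was 50.1%, and for Cux1 and Cux2 61.3%. The part of GC content in the promoter count was not tested. Sites inside the gene body were found in the same 5 genes, against 53.0% of all protein-coding genes. These 5 genes are long, and genes of like length mostly had a body site. The share was 84.8% in the length decile of Bcl11b and Bcl11a and 94.0% in that of Sox5, Cux1 and Cux2. The count is thus not read as an excess. At least 1 site lay within 200 kb of each of the 7 genes, as it did for 93.5% of all protein-coding genes, so that count is near its background.

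**Figure D1:**
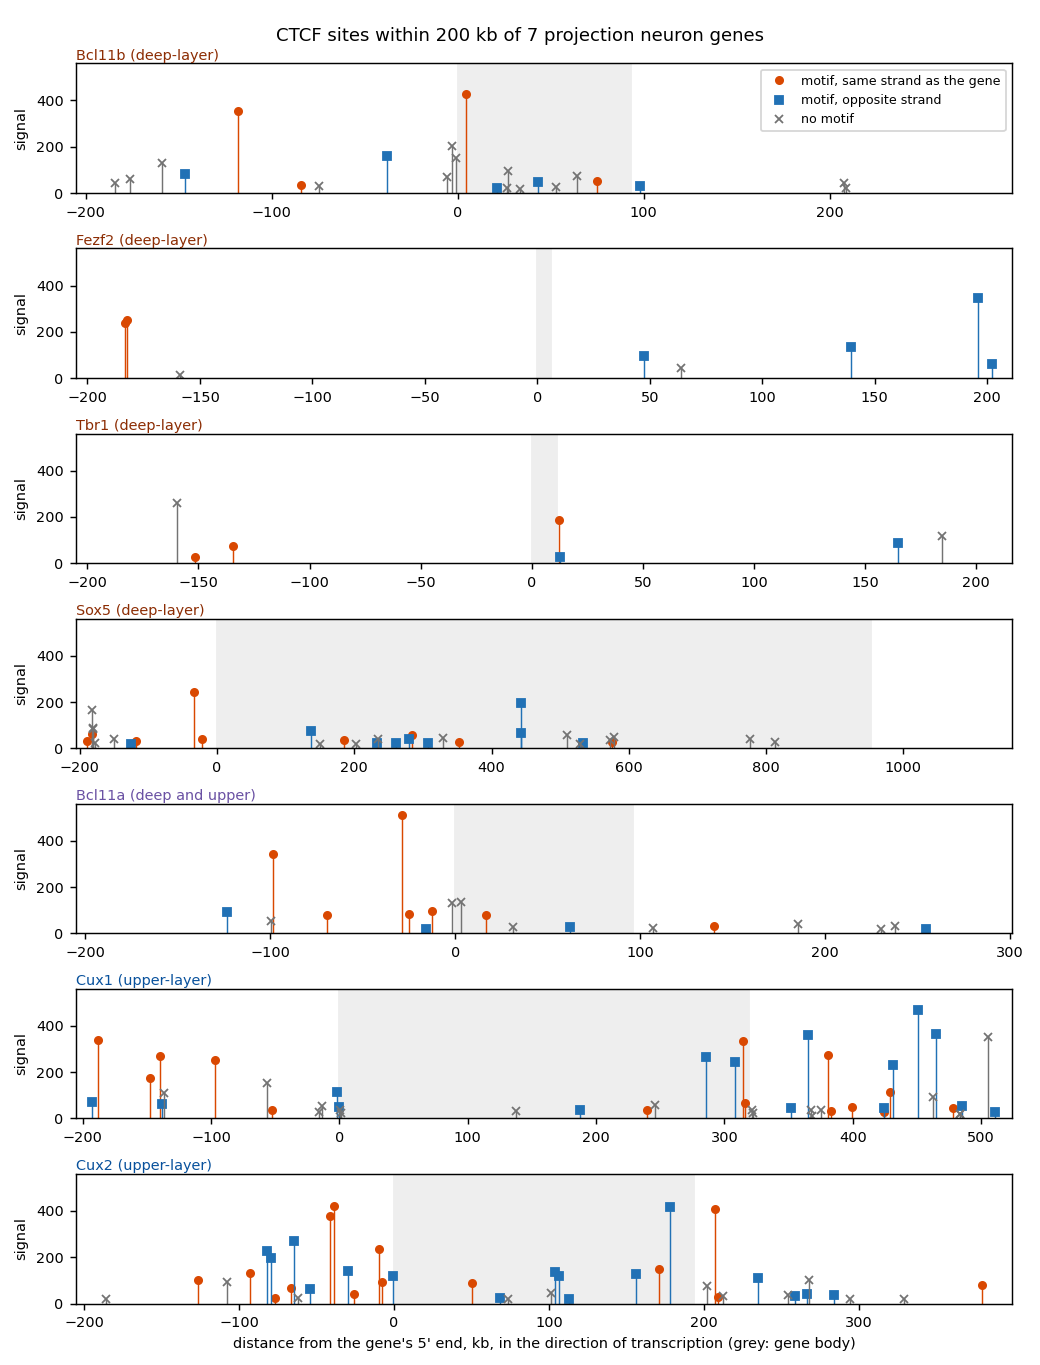
CTCF sites around each gene, with distance from the gene's 5′ end in kb along the direction of transcription on the horizontal axis and the deposited signal value on the vertical axis. Orange circles are sites whose motif lies on the gene's strand, blue squares sites with the motif on the other strand, grey crosses sites without it, and grey shading is the gene body. Fezf2 and Tbr1 have no site inside the gene, and Fezf2, Tbr1, Cux1 and Cux2 have strong sites on both sides.

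Bcl11b (ENSMUSG00000048251.15, chromosome 12, 107910403 to 108003602, minus strand) had the densest gene body of the 7, with 9 sites in 93.2 kb or 9.66 per 100 kb. Protein-coding genes of like length (the same length decile) had a median of 2.88 per 100 kb. The strongest site of the Bcl11b locus lay in its own intron, 4643 bp from the 5′ end (107998819 to 107999083). It had a signal of 429, with 237 in replicate 1 and 192 in replicate 2, and ranked 464th of the 56462 sites. Its promoter site lay 570 bp upstream of the first TSS with a signal of 152, and with 78.0 in replicate 1 and 72.2 in replicate 2. Further upstream, at 2889 bp and 5728 bp, stood sites of 206 and 69.4. These 4 sites within 6 kb of a TSS formed a dense group, as 5.93% of protein-coding genes had 4 or more sites within 10 kb of their first TSS. Of the 4, only the intronic site held the core motif. The best match in each of the other 3 had 4 mismatches.

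Other strong sites of the Bcl11b window lay upstream. A site of 354 in an intron of Setd3, 117910 bp upstream, had 191 in replicate 1 and 163 in replicate 2, and a site of 162 lay 38158 bp upstream in intergenic DNA. The 3 sites downstream of the gene had signals between 21.5 and 46.0. Bcl11b had the lowest share of sites with the motif of the 7 genes, 9 of 23 or 39.1%, against 67.2% of all sites.

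Fezf2 (ENSMUSG00000021743.6, chromosome 14, 12342094 to 12348189, minus strand) and Tbr1 (ENSMUSG00000035033.15, chromosome 2, 61802930 to 61814114, plus strand) had no site in the gene body or within 1 kb of a TSS. Both genes are short, at 6.10 kb and 11.2 kb. Among protein-coding genes of like length, 29.9% had a body site in the decile of Fezf2 and 38.6% in that of Tbr1. The replicate lists, which reach far below the optimal list, held only weak peaks there. For Fezf2 the strongest peaks were 5.49 in replicate 1 and 5.37 in replicate 2. In the list called on both libraries together, 40.0% of peaks were stronger than the best one in this gene or at its starts. For Tbr1 the strongest peaks were 7.36 in replicate 1 and 6.99 in replicate 2. The matching share was 29.4%.

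Fezf2 sat inside a stretch of 206 kb without any optimal-list site, and 15.8% of protein-coding genes had a stretch at least as long around their first TSS. The median stretch over protein-coding genes was 40.0 kb. Its nearest site lay 44972 bp from a TSS on the downstream side with a signal of 97.8, with 52.3 in replicate 1 and 44.9 in replicate 2. On the upstream side the first site with the motif came only 182244 bp away, in an intron of Cadps, with a signal of 250, 134 in replicate 1 and 119 in replicate 2. A further site of 239 stood 907 bp beyond it. The strongest site of the window, 345 with 189 in replicate 1 and 157 in replicate 2, lay in an intron of Ptprg.

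Tbr1 sat in a stretch of 147 kb without a site, but that stretch ended just past its 3′ end. A site of 186, with 98.7 in replicate 1 and 87.1 in replicate 2, lay 991 bp beyond the end of the gene (61815022 to 61815200) and 8843 bp from the nearest TSS. A weaker one of 27.0 followed 626 bp later. On the other side the nearest site was 134473 bp from the gene and had a signal of 75.0, with 38.0 in replicate 1 and 34.9 in replicate 2. The strongest site of the Tbr1 window was 260, with 132 in replicate 1 and 127 in replicate 2, in an intron of Tank.

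Sox5 (ENSMUSG00000041540.16, chromosome 6, 143828425 to 144781977, minus strand) is the longest of the 7 genes at 954 kb, and 22 sites lay in its body. That is 2.31 per 100 kb, against a median of 2.04 in its length decile. These body sites were weak: their median signal was 36.8, and 19 of 22 fell in the weaker part of the optimal list, below its median of 64.3. The strongest, 194 with 104 in replicate 1 and 90.6 in replicate 2, lay in an intron 129649 bp from the nearest TSS. The promoter site of 38.0, with 15.7 in replicate 1 and 21.4 in replicate 2, lay 114 bp upstream of a TSS. That TSS was 572409 bp inside the annotated gene, since no transcript of the basic set starts nearer to the gene's 5′ end. Of the 22 body sites, 18 lay upstream of it. In the span of the basic-set transcripts, 381 kb, only 4 remained, or 1.05 per 100 kb, against a median of 2.00 in the matching length decile. That span was an alternative chosen after seeing the data.

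Outside Sox5, 11 sites lay within 200 kb upstream and none downstream. The nearest site with the motif on the downstream side was 219148 bp away and had a signal of 125, with 55.8 in replicate 1 and 64.6 in replicate 2. No Sox5 site ranked among the strongest 10% of all sites, and neither did any of Tbr1. Over all 7 genes 15 of the 177 sites did, or 8.47%. At least 50% of the 101 bases around the summit were annotated repeat at 11 of 33 Sox5 sites or 33.3%, against 13.9% of all sites.

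Bcl11a (ENSMUSG00000000861.15, chromosome 11, 24078056 to 24174123, plus strand), which encodes a zinc-finger factor related to Bcl11b, had 4 body sites and 19 in the window. Its promoter site of 134, with 70.4 in replicate 1 and 62.0 in replicate 2, lay 431 bp inside the TSS of 1 of its 4 annotated starts. The other starts were nearer to a site of 130, with 77.8 in replicate 1 and 54.1 in replicate 2, which lay 1587 bp upstream and thus outside the 1 kb limit. Neither held the core motif. Counted together, the start regions of Bcl11b and Bcl11a held 6 sites within 6 kb of a TSS, each of 69.4 or more, and 5 of the 6 lacked the motif. This pair of genes was singled out after its values were seen. Over all 7 genes, 9 of 18 sites within 10 kb of an own TSS held the motif, or 50%, near the 56.5% of all sites within 10 kb of a protein-coding TSS.

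Binding at Bcl11a was uneven between its sides. The 9 upstream sites had a median signal of 92.1 and the 6 downstream sites one of 28.2. The strongest site near any of the 7 genes, 512 with 258 in replicate 1 and 254 in replicate 2, lay 28656 bp upstream in a coding exon of A830031A19Rik and ranked 74th of all sites. A second, of 342 with 185 in replicate 1 and 154 in replicate 2, lay 98532 bp upstream in intergenic DNA. Both held the motif on the strand of Bcl11a, the second without a mismatch. The downstream sites ran between 18.8 and 39.2, and only 1 of the 6 was also in the conservative list, against 87.4% of all sites.

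Cux1 (ENSMUSG00000029705.17, chromosome 5, 136248135 to 136567490, minus strand) had 10 body sites, 46 in the window and 3 at its starts. The promoter sites were modest. The first had 47.7, with 28.3 in replicate 1 and 21.6 in replicate 2. The second, 1 bp from a TSS, had 36.9, with 15.0 in replicate 1 and 24.6 in replicate 2. The third had 23.1, with 9.91 in replicate 1 and 13.0 in replicate 2, and was not in the conservative list. A stronger site of 114 without a mismatch to the motif lay 1592 bp upstream, beyond the promoter limit. Within the gene the strong sites stood at its 3′ end. The 3 strongest were 336, 266 and 244 and lay between 285982 and 314391 bp from the 5′ end of a gene of 319 kb. No site was called in the 137 kb that follow the promoter group.

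The Cux1 window continued into gene-rich DNA. Its strongest site, 469 with 248 in replicate 1 and 222 in replicate 2, lay 8 bp from a TSS of Polr2j, which encodes an RNA polymerase II subunit, and ranked 206th. Sites of 364, 359 and 351 were also found on that downstream side. Of its 23 downstream sites, 10 were promoter sites of other genes. On the upstream side the strongest was 338, in an intron of Col26a1.

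Cux2 (ENSMUSG00000042589.18, chromosome 5, 121856366 to 122050102, minus strand) had 10 body sites and 41 in the window. Its promoter site, 632 bp upstream of a TSS, had a signal of 120, with 72.6 in replicate 1 and 49.7 in replicate 2, and held the motif. The strongest site of its body, 416 with 225 in replicate 1 and 189 in replicate 2, stood 177758 bp from the 5′ end of a gene of 194 kb, near the 3′ end as in Cux1. The strongest of the window, 419 with 227 in replicate 1 and 191 in replicate 2, lay 38998 bp upstream. Another of 407, with 220 in replicate 1 and 186 in replicate 2, lay 13364 bp past the 3′ end, near Pheta1. Cux2 thus had a site of 407 or more in its body and on either side.

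Counted over the whole windows, sites were sparser around deep-layer than around upper-layer factors. The 4 deep-layer windows held 71 sites in 2664 kb, or 2.67 per 100 kb. The 2 upper-layer windows held 87 in 1313 kb, or 6.63 per 100 kb, which is 2.49 times as many. Single deep-layer genes stood at 4.66 for Bcl11b, 1.97 for Fezf2, 1.70 for Tbr1 and 2.44 for Sox5. Cux1 stood at 6.39 and Cux2 at 6.91, so the groups did not overlap, and Bcl11a lay in between with 3.83. The median over all protein-coding genes was 3.53 and the quartiles 1.87 and 5.63, which puts both upper-layer genes above the upper quartile and Tbr1 below the lower one.

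**Figure D2:**
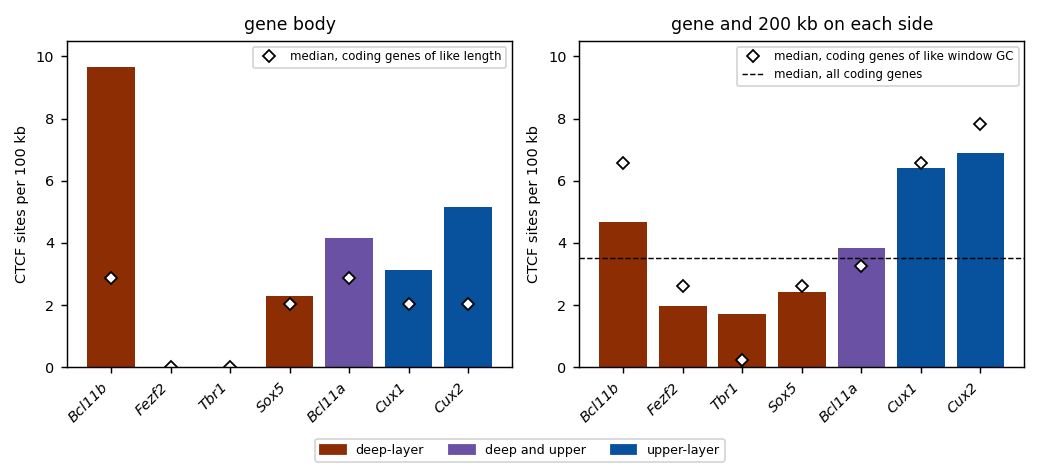
CTCF sites per 100 kb in the gene body (left) and in the gene with 200 kb on each side (right), with 1 bar per gene coloured by layer group. Diamonds mark the median of protein-coding genes in the same length decile (left) or the same decile of window GC content (right), and the dashed line is the median of all protein-coding genes, 3.53. Bcl11b has the highest body density at 9.66, and Cux1 and Cux2 have the highest window densities at 6.39 and 6.91.

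Base composition and gene density moved with this difference. The GC content of the windows was 48.1% for Bcl11b, 42.3% for Fezf2, 38.7% for Tbr1 and 42.9% for Sox5, against 48.2% for Cux1 and 49.8% for Cux2. Genes in the same GC decile had median densities of 6.57, 2.61, 0.249 and 2.61 per 100 kb for the deep-layer genes in that order, and of 6.57 for Cux1 and 7.84 for Cux2. Both upper-layer genes were thus below the median of their own GC decile, as were the deep-layer genes except Tbr1. The windows of the deep-layer factors held the 5′ ends of 0 to 2 other protein-coding genes, and those of both upper-layer factors held 9. Genes in the same decile of this number had median densities of 2.41, 2.41, 1.43 and 1.43 per 100 kb for the deep-layer genes in the same order. For Cux1 and Cux2 that median was 3.97. Against these medians both upper-layer genes were higher, as were the deep-layer genes except Fezf2. The part of GC content and of neighbouring genes in the difference was not tested.

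In gene bodies the same comparison was not stable. Deep-layer bodies held 31 sites in 1064 kb, or 2.91 per 100 kb, and upper-layer bodies 20 in 513 kb, or 3.90 per 100 kb. The difference of -0.98 per 100 kb changed sign to 4.25 without Sox5, whose 954 kb make up most of the deep-layer total, and it was -0.22 without Cux2.

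The signal of sites near the 7 genes had a median of 55.2, with 29.1 in replicate 1 and 26.5 in replicate 2, against 64.3 over all sites. It was 46.0 for the deep-layer factors, 54.2 for Bcl11a and 65.2 for the upper-layer factors. Single genes did not keep that order. Their medians were 52.8 for Bcl11b, 117 for Fezf2, 86.3 for Tbr1 and 38.7 for Sox5, against 54.7 for Cux1 and 86.6 for Cux2. Sox5 held 33 of the 71 deep-layer sites. Upstream sites had a median of 88.6, body sites outside promoters 41.9 and downstream sites 42.0. Upstream and downstream medians were 75.5 and 33.2 for Bcl11b, 239 and 97.8 for Fezf2, 112 and 44.6 for Cux1, and 103 and 37.7 for Cux2, the same order as in Bcl11a. Tbr1 had the opposite order, with 75.0 upstream and 103 downstream, and Sox5 had no downstream site. Some of these medians rest on few sites, with 3 upstream of Fezf2, 3 downstream of Bcl11b, and 3 upstream and 4 downstream of Tbr1. The 2 sides were not compared in this way over all protein-coding genes, so the order is not read as a trait of these genes.

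The core motif was present within 50 bp of the summit at 108 of the 177 sites, or 61.0%, against 67.2% of all sites and 3.31% and 3.39% of windows 1000 bp to either side of all summits. The share was 53.5% for deep-layer factors, 57.9% for Bcl11a and 67.8% for upper-layer factors. By gene the 2 groups overlapped. The share was 39.1% for Bcl11b, 75.0% of 8 sites for Fezf2, 71.4% of 7 sites for Tbr1 and 54.5% for Sox5. For Cux1 it was 63.0% and for Cux2 73.2%. Over the 7 genes, sites with the motif had a median signal of 76.6 and sites without it one of 38.7. Over all sites these medians were 92.1 and 38.3. Tbr1, Bcl11b and Sox5 did not follow that order. The medians with and without the motif were 75.0 and 189 for Tbr1, on 5 and 2 sites, 52.8 and 54.1 for Bcl11b, and 33.7 and 39.8 for Sox5.

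**Figure D3:**
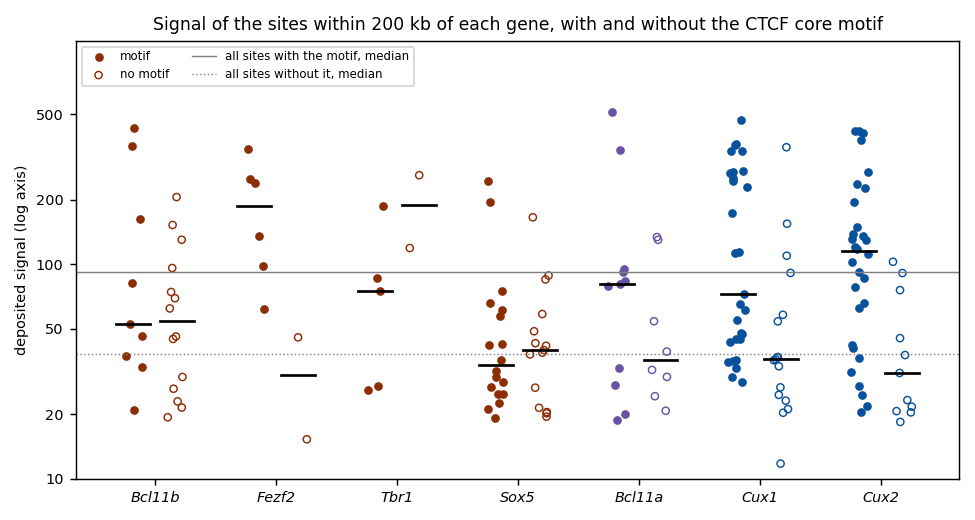
Deposited signal of each site on a log axis, by gene, with filled circles for sites with the core motif and open circles for sites without it, and a black bar for the median of each. Grey lines are the medians over all sites with the motif (92.1, solid) and without it (38.3, dotted). The bar for sites without the motif is the higher one for Tbr1, Bcl11b and Sox5, and it rests on 2 sites each for Fezf2 and Tbr1.

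Sites closer to the motif had higher signals. Sites with 0, 1, 2, 3 and 4 mismatches had medians of 253, 89.3, 47.7, 39.3 and 38.4 around the 7 genes and of 207, 110, 59.8, 42.7 and 33.6 over all sites. Sites without a mismatch were 17 of the 177, or 9.60%, near the 9.46% of all sites. Upper-layer factors, with 87 of the 177 sites, had 14 of these 17, 7 around each of Cux1 and Cux2. Bcl11a had 2, Sox5 had 1, and Bcl11b, Fezf2 and Tbr1 had none. At promoters the motif was rarer: 2 of 7 promoter sites of these genes held it, those of Cux1 and Cux2, against 36.9% of all promoter sites. In the RefSeq promoter windows of 300 bases, the motif was found in 1 of 8 windows of these genes, that of Cux2, and in 14.4% of 32851 windows in all.

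Motifs outside the genes pointed mostly towards them. A motif was counted as facing the gene when it lay on the plus strand at the lower-coordinate side or on the minus strand at the higher-coordinate side. Of 76 sites with the motif outside the gene bodies, 50 faced the gene, or 65.8%, against 48.1% when every protein-coding gene was counted in this way, where neighbouring genes share sites. More than 50% of such motifs faced the gene at each of the 7, with 6 of 6 at Fezf2, 4 of 5 at Tbr1, 5 of 6 at Sox5, 3 of 5 at Bcl11b, 6 of 9 at Bcl11a, 13 of 23 at Cux1 and 13 of 22 at Cux2. Among the 16778 protein-coding genes with at least 5 such sites, 39.0% had more than 50% facing. Of the 1175 protein-coding genes with exactly 6 such sites, 26 had all 6 facing, or 2.21%. This last share was taken up after the 6 of 6 at Fezf2 was seen, so it does not measure how unusual Fezf2 is. All 6 sites at Sox5 lay on the higher-coordinate side. The facing counts were not among the planned results and were not rerun with other lists, windows or motif limits.

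The nearest motif-bearing sites on either side pointed towards each other at Fezf2 and Sox5, 2 of the 7 genes. This is the background share, as 28.7% of all protein-coding genes had such a pair, so nothing about these genes is read from the count. At Fezf2 this pair was 229.6 kb apart, with the sites of 97.8 and 250 described above, and the 5′ end of no other protein-coding gene lay between them. At Sox5 the pair was 1195 kb apart, with signals of 125 and 42.3. Inside the gene bodies 12 of 32 motifs lay on the gene's own strand, or 37.5%, against 48.6% over all protein-coding genes.

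A called peak in both replicates was found at 56235 of all 56462 sites. Near that background, both replicates had one at 176 of the 177 sites around these genes. The exception was a Sox5 intron site of 21.3, which had 17.4 in replicate 1 and no overlapping peak in replicate 2. After centring on the median of all sites, the log2 of replicate 1 over replicate 2 had an SD of 0.48 at these sites and 0.50 over all sites. It ran between -1.71, at a Sox5 intron site with 4.92 in replicate 1 and 14.1 in replicate 2, and 1.43, at a site downstream of Bcl11a with 24.5 in replicate 1 and 7.92 in replicate 2. Of the 6 downstream sites of Bcl11a, 3 were above 1.1 on this scale, so the weak side of that locus was also the side where the replicates differed most. The SD was 0.95 there and 0.36 at the 9 sites upstream of Bcl11a.

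**Figure D4:**
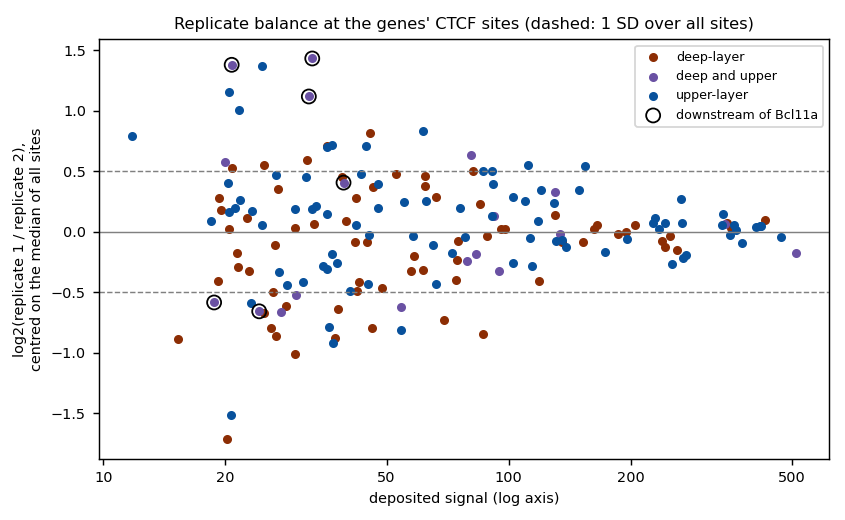
Log2 of replicate 1 over replicate 2 at each site, with the median of all sites set to 0, against the deposited signal on a log axis, with 1 point per site coloured by layer group. Dashed lines are 1 SD over all sites (0.50), and open circles ring the 6 sites downstream of Bcl11a, 3 of which lie above 1.1. The points spread widely at low signal and lie close to 0 above a signal of 200.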

How the data were processed

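CTCF peak lists of 2 libraries of 1 group were used: 1 list per replicate, 1 called on both libraries, and the authors' optimal and conservative lists after an irreproducible discovery rate (IDR) step, all on mm10 per the labels. The deposited signal values are the authors' own. The deposited −log10 q-value and score served to describe peaks, and the deposited summit offset to place summits. The sources used here do not give the aligner, the peak caller or the read depth. No control experiment was used here. The replicate lists differed in their values and were not duplicates.

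Gene models were GENCODE M21 (basic set, TSSs as transcript 5′ ends) and sequence was RefSeq GRCm38.p6, with chromosome lengths checked against the peaks. Peaks on unplaced contigs were left out. A replicate's signal at a site was that of its strongest overlapping peak. The 14-base core motif was allowed 2 mismatches on either strand, with its centre within 50 bp of the summit. On simulated data the scan reported a match in 100% of 5000 windows with a planted one. The planted matches met the limits of the scan, so this checks only that the code runs as written. Densities are sites over kb of summed spans.

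All 7 genes were named, with up to 3 strongest sites of promoter, body and flank in full. Some sites (near-start groups, nearest sites, replicate extremes) were chosen after their values were seen. The members and lists were chosen with earlier results of these data known. Alternatives were other lists, windows, motif limits and left-out genes. Work used Python 3.11.15, numpy 2.4.6, pandas 2.3.3, pysam 0.24.0, samtools 1.23.1 and matplotlib 3.10.9.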

Additional observations from a re-analysis of the deposited data

How the results depend on the processing

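No paired analysis was possible because there was 1 group. Replicates alone (as many top peaks as the optimal list) gave 5 genes with a promoter site in both, 51 to 53 body sites, 172 to 175 sites within 200 kb, motif shares of 59.4 to 62.8%, and deep-layer minus upper-layer differences of -1.27 to -1.17 per 100 kb in bodies and -4.15 to -3.62 within 200 kb. The stronger part of the optimal list gave 3, 18 and 80 for the counts, a motif share of 75.0%, and differences of -1.39 and -2.34. Promoter genes fell to 3 with a 500 bp window and to 3 with 1 TSS per gene. Windows of 500 kb gave 346 sites, a median signal of 61.3, a motif share of 65.9% and a difference of -4.76, and windows of 100 kb a median of 47.5 and a difference of -4.43. Motif shares were 28.8% with at most 1 mismatch, 81.4% with at most 3 and 65.0% within 100 bp. The body difference was -0.80 in the conservative list, -0.88 with Bcl11a as deep-layer, -1.63 without Bcl11b, 4.25 without Sox5, -2.25 without Cux1, -0.22 without Cux2, -1.16 as a mean of gene densities and -1.25 with basic transcript spans, an alternative chosen after seeing the data. The 200 kb difference was -4.41 without Bcl11b and stayed negative in every alternative run. The cause of these shifts was not tested. With no read depth and no control, weak or missing peaks could not be told from low sensitivity.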

Other observations

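Broader lists of projection neuron genes gave the same order. Of 12 other deep-layer genes, 3 had a site within 1 kb of a TSS, and of 12 other upper-layer genes, 8 had one, against 36.8% of all protein-coding genes. The deep-layer genes with one were Foxp2, a forkhead factor of corticothalamic neurons (122, with 63.6 in replicate 1 and 57.7 in replicate 2), Etv1, a marker of layer 5 neurons (107, with 64.3 in replicate 1 and 43.2 in replicate 2), and Foxp1 (17.2, with 4.16 in replicate 1 and 14.2 in replicate 2). The upper-layer genes with the strongest were Inhba, an activin subunit (187, with 108 in replicate 1 and 77.1 in replicate 2), Cited2 (113, with 63.7 in replicate 1 and 52.3 in replicate 2) and Pou3f2 (47.6, with 33.8 in replicate 1 and 14.5 in replicate 2). Window densities were again lower for the deep-layer list, but the gap was small. Medians were 1.20 sites per 100 kb for the deep-layer list and 1.61 for the upper-layer list. Densities ran from 0.407 at Etv1 to 3.41 at Foxp1 in the deep-layer list, and the highest in the upper-layer list was 6.13 at Plxnd1. Both medians were below that of all protein-coding genes, 3.53. The median window GC was 40.1% for the deep-layer list and 40.5% for the upper-layer list. No background from genes of like GC content around the 5′ end was taken for the promoter counts of these lists.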
